A study of Homo sapiens with 4 samples.

Results

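The chaperonin TRiC, also called CCT, is encoded by 8 genes, and their RNAs are described here as they were recovered with ORC1 in nuclear extracts. The 8 genes are TCP1, CCT2, CCT3, CCT4, CCT5, CCT6A, CCT7 and CCT8, taken as the rows of the count table whose Ensembl identifiers carry these symbols in GENCODE v44. All 8 were found among the 63677 genes of the table, and all 8 were among the 14645 genes with enough reads to be tested. The rule for membership is the gene name and uses no measured value, although the group was picked for description with earlier results of these data known.

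The libraries came from nuclei of HCT116, an established human colorectal carcinoma cell line, transfected for 48 h with a plasmid, pcDNA3.1-ORC1-3xFLAG, carrying ORC1 fused to a 3xFLAG tag. The protein is a subunit of the origin recognition complex, which marks the sites where DNA replication can start. In RNA immunoprecipitation sequencing (RIP-seq), uncrosslinked nuclear lysates were sonicated and precipitated with the M2 antibody to FLAG, and the RNA recovered (IP) was compared with the RNA of the lysate (Input). Each group, ORC1-FLAG IP and Input, had 2 libraries with the replicate numbers 1 and 2, and all 4 carried the same transfection. Expression was transient, the tagged protein was made beside the cells' own ORC1, and Input was the only reference among these libraries, none of which came from a control antibody or from untransfected cells. The labels do not say whether the replicates were separate cultures, so p-values measure only the spread between these libraries.

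TRiC is a cytosolic folding machine built of stacked rings, in which each ring holds a copy of every subunit. The subunits are related ATPases of similar size, named alpha to theta. The complex takes unfolded actin and tubulin from the co-chaperone prefoldin and closes around them, and it also folds WD40 repeat proteins and cell cycle regulators. The mRNAs of its subunits are abundant in dividing cells.

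The IP libraries held 27483148 (replicate 1) and 20280445 (replicate 2) counted reads, and their Inputs 14677002 and 9213877. Levels are given as CPM, counts relative to the library total after scaling by trimmed means of M values (TMM). The transfected gene ORC1 had 1108 and 18550 CPM in the IP libraries and 333 and 5063 CPM in their Inputs. This counted level thus differed far more between replicates than between IP and Input. According to the methods the plasmid cDNA was codon-optimized, so how many of its reads were counted for ORC1 is not known. Of the 6 epithelial markers listed, which included EPCAM and KRT8, 5 were present in every library, and they summed to 2313 to 4510 CPM. VIL1 had at most 5 counts. The 8 markers of leukocytes, endothelium, fibroblasts and hepatocytes summed to 8.42 to 29.6 CPM, with 4 to 6 of them at 0 or 1 count. COL1A1 made up most of each sum, with 126 to 470 counts, and VWF had 7 to 42 counts. COL1A1 was higher in IP, at 1.38 on the log2 scale (edgeR adjusted p = 0.017).

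RNAs of 3 of the 8 subunits, CCT3, CCT5 and CCT8, were enriched in the IP, and those of the other 5 were not called in either direction. CCT3 was higher in IP than in Input by 1.78 ± 0.37 on the log2 scale, CCT5 by 1.64 ± 0.33 and CCT8 by 1.36 ± 0.34 (SE, n = 2 libraries per group). The log2 fold changes of the 5 others lay between 0.20 (TCP1) and 0.41 (CCT7), and scaling by library size alone turned them to between -0.42 (TCP1) and -0.20 (CCT7). A gene was called when its edgeR quasi-likelihood p, adjusted by Benjamini-Hochberg over all tested genes, was below 0.05 and its log2 fold change was above 1 or below -1. By this rule 10.5% of all tested genes were enriched and 8.3% were depleted, and of the 8 subunit genes 3 were enriched and 0 depleted. The median log2 fold change of the 8 was 0.35, and that of all tested genes was 0.0079. With library size alone these medians were -0.27 and -0.59, and leaving out 1 library at a time gave a median of the 8 between 0.092 (without Input replicate 2) and 0.68 (without IP replicate 2). In bulk nuclei, RNA present in fewer cells and less RNA per cell cannot be told apart.

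CCT3 encodes the gamma subunit (ENSG00000163468, minus strand of chromosome 1, bases 156308968 to 156367873, GRCh38). Its level was 4095 and 2325 CPM in replicates 1 and 2 of the IP and 1039 and 835 CPM in the Inputs. Both IP libraries lay above both Inputs. IP was 3.94-fold Input in replicate 1 and 2.78-fold in replicate 2, and the edgeR adjusted p was 0.0197.

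CCT5, the epsilon subunit (ENSG00000150753, plus strand of chromosome 5, bases 10249929 to 10266389), had 2114 and 1417 CPM in the IP libraries against 637 and 496 CPM in the Inputs. The groups did not overlap here either. IP was 3.32-fold and 2.86-fold Input in replicates 1 and 2 (edgeR adjusted p = 0.0179).

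CCT8, the theta subunit (ENSG00000156261, minus strand of chromosome 21, bases 29055805 to 29073797), had 1389 and 865 CPM in the IP libraries against 503 and 377 CPM in the Inputs. Again the lower IP library exceeded the higher Input. IP was 2.76-fold and 2.30-fold Input (edgeR adjusted p = 0.0306). In fits that left out a library, 1 group held a single library, and its spread was assumed to equal that of the other group. Without IP replicate 1 its log2 fold change was 1.02 (edgeR adjusted p = 0.0884), and without Input replicate 2 it was 1.01 (edgeR adjusted p = 0.0758). In these fits 2 of the 8 subunits were enriched, beside 8.04% and 9.23% of all tested genes.

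**Figure D1:**
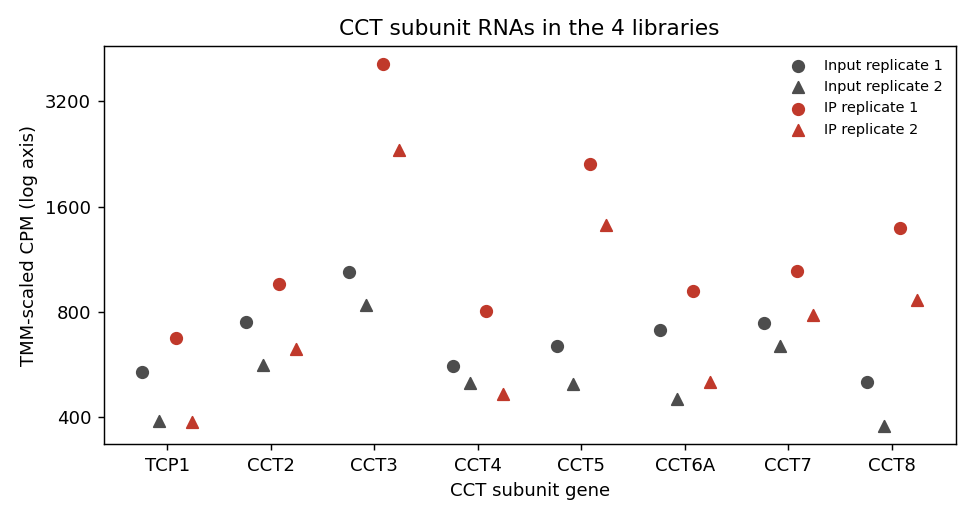
TMM-scaled CPM (log axis) of the 8 CCT subunit genes in the 2 Input libraries (grey) and the 2 IP libraries (red), with circles for replicate 1 and triangles for replicate 2. For CCT3, CCT5 and CCT8 both IP values lie above both Input values. The same holds by a smaller margin for CCT7, and for the other subunits the IP and Input values overlap.

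CCT7, the eta subunit (ENSG00000135624, plus strand of chromosome 2, bases 73233420 to 73253021), came next in order. It had 1049 and 781 CPM in the IP libraries against 741 and 640 CPM in the Inputs. The IP libraries lay above the Inputs here too, but the log2 fold change of 0.41 ± 0.28 (SE) had an edgeR adjusted p of 0.331.

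In the remaining 4 the IP and Input values overlapped. The share of all tested genes in which they do not overlap is not given here, so overlap only describes these libraries. CCT6A, the zeta subunit (ENSG00000146731, plus strand of chromosome 7, bases 56051685 to 56063989), had 918 and 502 CPM in the IP libraries against 711 and 450 CPM in the Inputs. CCT2, the beta subunit (ENSG00000166226, plus strand of chromosome 12, bases 69585426 to 69601570), had 958 and 625 CPM in the IP libraries against 746 and 562 CPM in the Inputs. For both of these genes each IP library exceeded the Input of its own replicate, while the replicate 2 IP lay below the replicate 1 Input.

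CCT4, the delta subunit (ENSG00000115484, minus strand of chromosome 2, bases 61868085 to 61888671), had 803 and 466 CPM in the IP libraries against 558 and 502 CPM in the Inputs. TCP1, the alpha subunit (ENSG00000120438, minus strand of chromosome 6, bases 159778498 to 159789703), had 674 and 387 CPM in the IP libraries against 537 and 389 CPM in the Inputs. In these genes IP exceeded Input in replicate 1 and fell short of it in replicate 2. The log2 fold changes of CCT6A, CCT2, CCT4 and TCP1 were 0.29, 0.28, 0.26 and 0.20, with SE from 0.32 to 0.38 and edgeR adjusted p from 0.565 (CCT2) to 0.716 (TCP1).

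Within each RIP replicate the 8 ratios fell into separate sets. In replicate 1 the log2 ratios of CCT3, CCT5 and CCT8 were 1.98, 1.73 and 1.47, and those of the other 5 ran from 0.33 (TCP1) to 0.53 (CCT4). In replicate 2 the 3 were at 1.48, 1.51 and 1.20, and the others ran from -0.11 (CCT4) to 0.29 (CCT7). The lowest enriched gene, CCT8, exceeded CCT7, the next in order of fold change, by 0.96 in replicate 1 and 0.91 in replicate 2. Differences of this kind do not depend on how the libraries are scaled, because the scaling factors are shared by both genes. They were not tested, since they compare genes within 2 replicates.

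The order inside each set was less fixed. CCT3 exceeded CCT5 by 0.25 on the log2 scale in replicate 1 and fell below it by 0.037 in replicate 2. CCT5 exceeded CCT8 in both, by 0.26 and 0.31. Among the uncalled genes, CCT4 had rank 4 of 8 in replicate 1 and rank 8 in replicate 2, and CCT6A and CCT2 differed by less than 0.01 in both. The ratio was higher in replicate 1 than in replicate 2 for 8 of the 8 genes, and for 8296 of the 14645 tested genes.

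**Figure D2:**
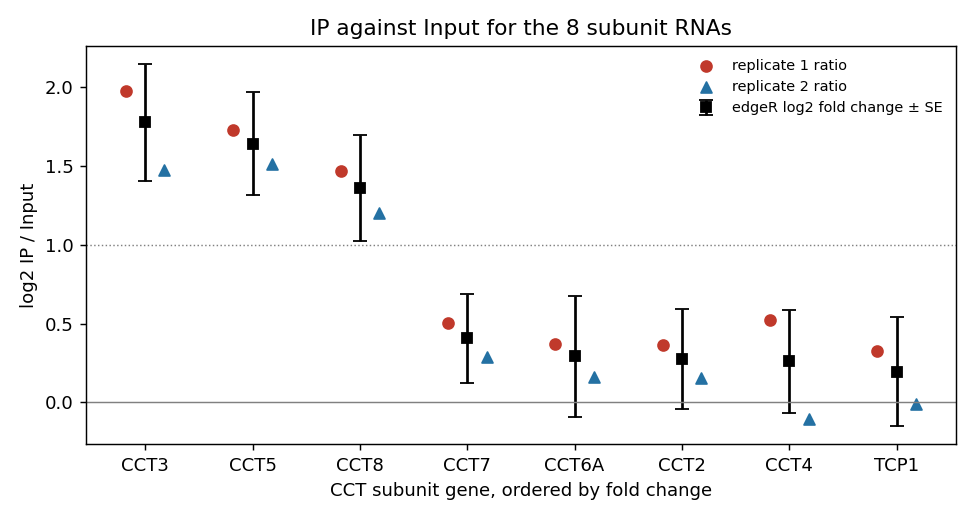
Log2 ratio of IP to Input for the 8 subunit genes, ordered by fold change, with black squares for the edgeR log2 fold change and bars for its SE, red circles for the replicate 1 ratio and blue triangles for the replicate 2 ratio. CCT3, CCT5 and CCT8 lie above the dotted line at 1 in both replicates, and the other 5 lie between -0.11 and 0.53.

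The same contrast appears in the make-up of the summed counts of the 8 genes, which needs no scaling. CCT3, CCT5 and CCT8 held 39.8% and 40.2% of these counts in Input replicates 1 and 2, and 63.3% and 62.5% in the IP libraries. The genes of this trio were picked by their calls, so the shift describes the calls and adds no support to them. CCT3 alone went from 19.0% (95% confidence interval 18.8 to 19.3, exact Clopper-Pearson) and 19.7% (19.3 to 20.01) in Input to 34.1% (33.9 to 34.3) and 31.6% (31.3 to 31.8) in IP. The share of CCT8 was 9.19% and 8.86% in Input and 11.6% and 11.7% in IP. TCP1 held 9.81% and 9.16% in Input and 5.62% and 5.25% in IP. No interval of any share was wider than 0.701 percentage points, and these intervals cover counting error only, since reads carried no molecular identifiers. As a whole the 8 genes made up 0.651% and 0.539% of the Input counts and 0.909% and 0.639% of the IP counts.

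**Figure D3:**
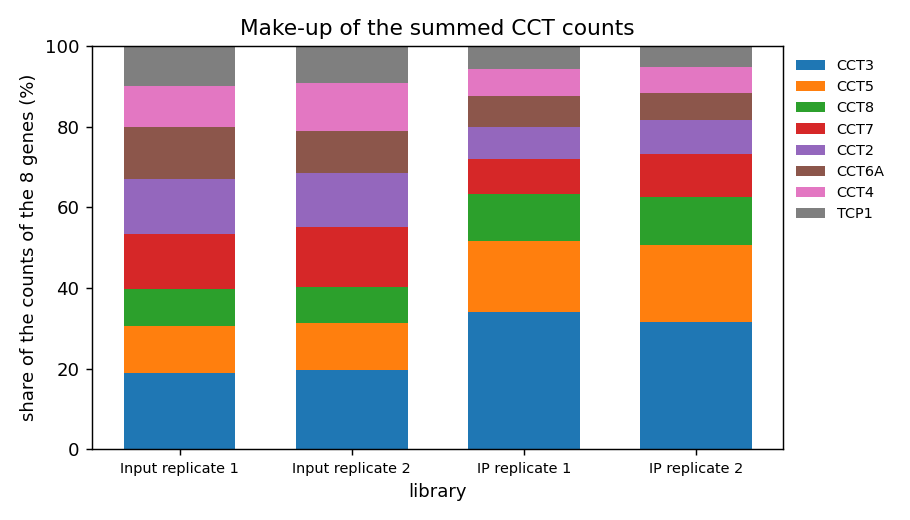
Share (%) of each gene in the summed counts of the 8 CCT subunit genes, as stacked bars for the 2 Input and the 2 IP libraries. The lower segments, CCT3, CCT5 and CCT8, together reach about the same height in both Inputs (39.8% and 40.2%) and a greater height in both IP libraries (63.3% and 62.5%).

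Levels between genes were compared per kilobase of exonic length (the union of all annotated exons). In Input, CCT3 had the highest level per kilobase, 269 and 216 CPM per kb in replicates 1 and 2, and TCP1 the lowest, 110 and 79.7 CPM per kb. CCT5 and CCT8 had ranks 7 and 6 in both Inputs, with 113 and 87.9 and with 150 and 113 CPM per kb. Neighbours in this order were often closer than the replicates. CCT4 and CCT7, for example, stood at 207 and 207 CPM per kb in replicate 1 and at 186 and 178 in replicate 2. The enriched subunits were thus found at the top and near the bottom of the Input order. In IP, CCT3 remained the highest with 1060 and 602 CPM per kb, followed by CCT8 with 416 and 259 and CCT5 with 375 and 251. Per kilobase of the canonical transcript alone, CCT3 again led the Inputs and CCT5, with its long 3′ untranslated region, came last with 193 and 151 CPM per kb.

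The coding sequences of the 8 genes ran from 1596 bases (CCT6A) to 1671 bases (TCP1). With 1626, 1638 and 1647 bases, those of CCT5, CCT3 and CCT8 sat inside this range beside CCT7 with 1632. Of the 326 other protein-coding genes tested with a coding length in the same range, 22 (6.75%) were enriched and 13 (3.99%) depleted, with a median log2 fold change of 0.032. CCT3, CCT5 and CCT8 were higher than 99.1%, 98.8% and 96.6% of these genes, and the 5 uncalled subunits were higher than 59.5% (TCP1) to 69.9% (CCT7) of them.

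The subunit RNAs were abundant in the Inputs. Their mean Input levels ran from 440 to 937 CPM, a range that held 148 other protein-coding genes whatever their length. Among these, 57 (38.5%) were enriched and 15 (10.1%) depleted, with a median log2 fold change of 0.79. The share of enriched genes among the 8 subunits, 37.5%, lay close to that of genes of similar Input level and above the 10.5% of all tested genes. When both length within 10% of the members' median and Input level were required, 12 genes were left, of which 5 were enriched (median 0.75). The comparison by Input level was added after the values were seen, and the part of Input level in the calls was not tested.

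**Figure D4:**
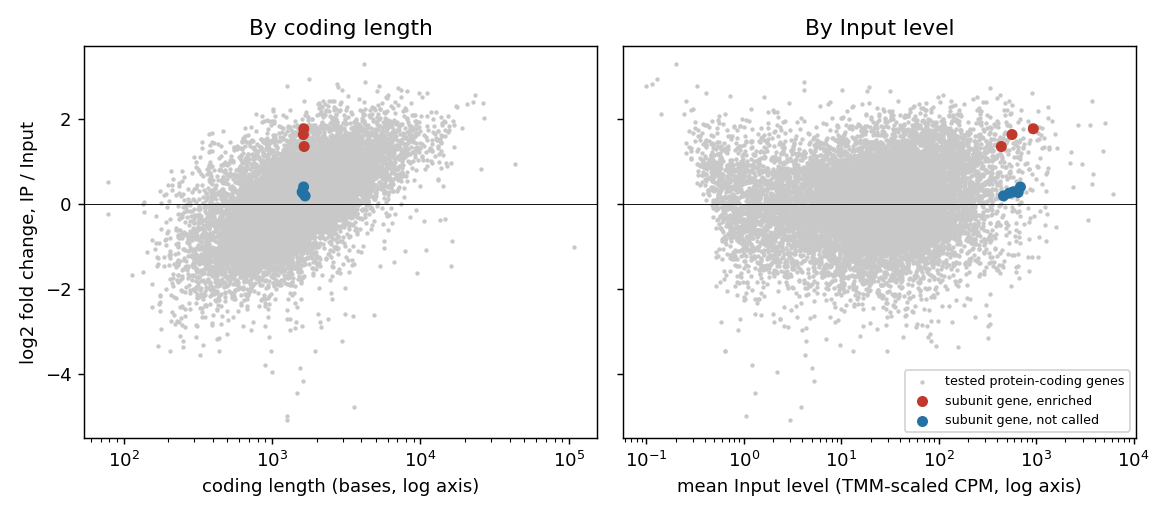
Log2 fold change of IP over Input for 12542 tested protein-coding genes (grey points) against coding length (left) and mean Input level (right), both on log axes. The 8 subunit genes, red where enriched and blue where not called, share a coding length of 1596 to 1671 bases and spread along the vertical axis from 0.20 to 1.78, and on the right they lie among the most abundant RNAs.

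Sequence features of the canonical transcripts did not line up with the calls. GC content was 50.6% in CCT3, 44.5% in CCT5 and 41.5% in CCT8, and 42.3% to 51.6% in the uncalled genes. The 3′ untranslated region was 1606 bases long in CCT5, the longest of the 8, and 231 and 149 bases in CCT3 and CCT8, with 144 (CCT7) to 904 bases (CCT6A) in the others. The number of exons ran from 11 to 15 in the enriched genes and from 12 to 16 in the rest. With 3 genes against 5 chosen by the outcome, none of these features was tested.

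GAA repeats are a sequence feature that the study examined in RNAs recovered with ORC1, so the sense strand of each canonical transcript was searched for GAA repeats. None of the 8 transcripts held GAAGAAGAA, a sequence present in 14.8% of the canonical transcripts of the 12542 tested protein-coding genes and in 11.7% of those with a coding length like that of the subunits. The shorter GAAGAA, which every GAAGAAGAA also contains, occurred 1 time in CCT3, 2 times in CCT5 and 5 times in CCT8. In the uncalled genes it occurred 0 times in CCT2, 1 time in CCT7, 2 times in CCT6A and TCP1 and 3 times in CCT4. It was present in 82.4% of tested protein-coding transcripts and in 83.7% of those of similar coding length, and 27.6% and 24.8% held it 5 or more times.

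The sites of the enriched subunits are shown with those of TCP1, the subunit with the lowest fold change, to let their contexts be compared. Each is read 5′ to 3′ on the transcript strand, with GAAGAA in capitals, in GENCODE v44 on GRCh38. All of them begin inside the coding sequence.
CCT3, chr1:156335847-156335876, minus strand: agcgtgaatccgGAAGAAaagttcaatctg
CCT5, chr5:10255963-10255992, plus strand: ggtgccttgttaGAAGAAgcggagcaattg
CCT5, chr5:10264763-10264792, plus strand: cctggagaatctGAAGAAtgaagacattga
CCT8, chr21:29067574-29067603, minus strand: ctggaattagctGAAGAActtctgaggatt
CCT8, chr21:29063489-29063518, minus strand: ataaagactgctGAAGAAttgatgaatttt
CCT8, chr21:29063462-29063491, minus strand: tttagtaagggaGAAGAAaacctcatggat
CCT8, chr21:29062383-29062412, minus strand: cctcctgtccttGAAGAAatgggacactgt
CCT8, chr21:29056491-29056520, minus strand: gcctccaagtggGAAGAAagactgggatga
TCP1, chr6:159780514-159780543, minus strand: aatttggaaggtGAAGAAacttttgaagct
TCP1, chr6:159780478-159780507, minus strand: ttgggacaggcaGAAGAAgtggtacaggag

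The gene with the most sites, CCT8, had the lowest fold change of the enriched trio, and CCT3, with the highest fold change, had 1 site, as did the uncalled CCT7. CCT3 and CCT5 changed order between the replicates, and no relation between sites and fold change was tested. The share of codons that are GAA was 3.48% in CCT3, 4.06% in CCT5 and 6.01% in CCT8, and 1.29% (CCT7) to 5.22% (CCT2) in the others, beside a median of 2.67% over tested protein-coding genes.

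The study also considered the transcription start sites of recovered RNAs, and several subunit genes lie head to head with another gene. A divergent protein-coding neighbour started within 200 bases of the outermost annotated start of 5 subunit genes. The whole stretch between the starts is shown for 3 of these pairs, where it is short and not a simple repeat, read on the plus strand of GRCh38.
CCT4 and COMMD1, chr2:61888672-61888723: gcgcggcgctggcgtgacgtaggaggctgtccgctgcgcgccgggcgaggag
CCT6A and PSPH, chr7:56051605-56051684: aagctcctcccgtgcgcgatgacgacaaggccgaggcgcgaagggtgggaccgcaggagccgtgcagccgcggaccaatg
TCP1 and MRPL18, chr6:159789704-159789811: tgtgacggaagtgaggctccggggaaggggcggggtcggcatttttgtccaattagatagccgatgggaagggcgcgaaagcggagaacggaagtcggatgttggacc

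None of the 5 neighbours was enriched. ATPSCKMT, a mitochondrial lysine methyltransferase whose start lies 32 bases from that of CCT5, had 9.75 and 8.59 CPM in the IP libraries against 10.5 and 8.99 CPM in the Inputs, and edgeR gave -0.092 ± 0.25 on the log2 scale (SE, adjusted p = 0.823). The log2 ratio of CCT5 exceeded that of ATPSCKMT by 1.84 in replicate 1 and 1.57 in replicate 2. The starts are annotated ones, and the pair also differed in mean Input level (566 CPM for CCT5, 9.76 CPM for ATPSCKMT). Their coding lengths were 1626 and 702 bases. The cause of the difference in ratio was not tested.

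COMMD1, 53 bases from CCT4, had 7.54 and 5.23 CPM in the IP libraries against 12.2 and 9.67 CPM in the Inputs (log2 fold change -0.78 ± 0.30, SE, edgeR adjusted p = 0.103). PSPH, an enzyme of serine synthesis that starts 81 bases from CCT6A, had 18.4 and 12.6 CPM in the IP libraries against 30.9 and 23.1 CPM in the Inputs (-0.80 ± 0.28, SE, edgeR adjusted p = 0.0822). MRPL18, a mitochondrial ribosomal protein gene 109 bases from TCP1, had 45.6 and 32.7 CPM in the IP libraries against 87.3 and 46.7 CPM in the Inputs (-0.78 ± 0.34, SE, edgeR adjusted p = 0.144). In these pairs every IP value of the neighbour was below every Input value, though narrowly for MRPL18 (45.6 against 46.7 CPM). The share of all tested genes separated in this way is not given here, so the separation only describes these libraries. With library size alone COMMD1, PSPH and MRPL18 were depleted, at -1.39, -1.41 and -1.38 (edgeR adjusted p = 0.015, 0.0093 and 0.0176). The replicate block gave -0.78, -0.81 and -0.73, short of the fold minimum (edgeR adjusted p = 0.00457, 0.000787 and 0.00134). Without Input replicate 2 they were at -1.08, -1.15 and -1.31, and without Input replicate 1 at -0.55, -0.54 and -0.21. Without IP replicate 1 they were at -1.02, -1.06 and -0.998, and without IP replicate 2 at -0.49, -0.51 and -0.51.

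PRADC1, 181 bases from CCT7, had 2.26 and 2.22 CPM in the IP libraries against 6.99 and 3.85 CPM in the Inputs, and edgeR gave -1.28 ± 0.42 on the log2 scale (SE, adjusted p = 0.0676). A fit with the replicate block called PRADC1 depleted (-1.26, edgeR adjusted p = 0.00134). So did library size alone (-1.87) and no count filter (-1.33). The other scalings, the other count filter, limma voom and DESeq2 (-1.28, DESeq2 adjusted p = 0.118) did not call it. Dropping the replicate 1 Input brought its log2 fold change to -0.74, and dropping the replicate 2 Input brought it to -1.79. With either IP library dropped it stayed at -1.25 (replicate 1) or -1.22 (replicate 2). PRADC1 had only 39 to 122 counts per library. In 5 of 5 pairs the subunit RNA had the higher ratio in both replicates, by 0.50 (TCP1 over MRPL18, replicate 2) to 1.94 (CCT7 over PRADC1, replicate 1) on the log2 scale. The neighbours also had shorter coding sequences, 543 to 702 bases, and lower Input levels than the subunits, and the part of these properties in the differences was not tested.

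**Figure D5:**
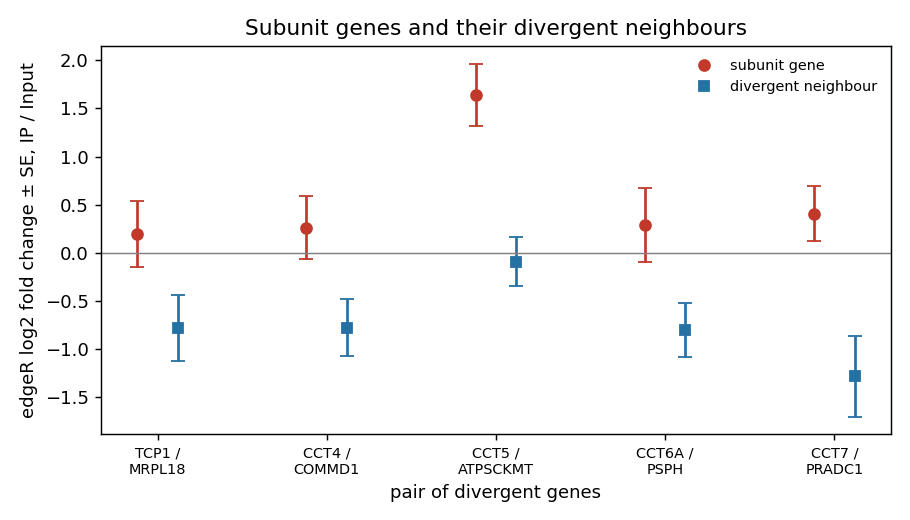
Log2 fold change (edgeR, IP over Input, bars are SE) of 5 subunit genes (red circles) and of the divergent protein-coding gene that starts within 200 bases of each (blue squares). The subunit lies above its neighbour in every pair, and the neighbours range from -0.092 (ATPSCKMT) to -1.28 (PRADC1).

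Reads of copies and overlapping genes were few. The 14 genes named as pseudogenes of the subunits held at most 0.861% of their parent's counts each. Of the genes that overlap them, ACAT2 had the most reads. It lies opposite TCP1, shares 454 bases or 9.30% of its exonic length, and had at most 6.998% of its counts. An antisense lncRNA gene covers 30.8% of the exonic bases of CCT5 and had at most 2 counts. Library preparation kept strand, but whether the counting used it is not stated. The snoRNA genes inside TCP1 and CCT6A had at most 3 counts in any library.

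Partners and clients of TRiC were taken from 5 lists. Of their 42 genes 38 were tested, and 3 of these (7.89%) were enriched and 5 (13.2%) depleted, beside 10.5% and 8.3% of all tested genes. The median log2 fold change of the 38 was -0.038.

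Prefoldin, the hexamer that hands actin and tubulin to TRiC, had all 6 subunit genes tested, with 1 enriched, 1 depleted and 4 not called (median 0.15). PFDN4 had 76.4 and 51.5 CPM in the IP libraries against 27.6 and 19.4 CPM in the Inputs, and edgeR gave 1.44 ± 0.30 on the log2 scale (SE, adjusted p = 0.0192). PFDN1 had 11.9 and 10.5 CPM in the IP libraries against 45.8 and 30.6 CPM in the Inputs, or -1.77 ± 0.27 (SE, edgeR adjusted p = 0.0117). With library size alone PFDN4 was at 0.83 and not called. The IP and Input libraries did not overlap in either gene, but the share of all tested genes without overlap is not given here. PFDN4 and PFDN1 moved in opposite directions. The coding sequences of PFDN4 and PFDN1 were 405 and 369 bases long.

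Of the phosducin-like proteins and other cofactors that bind TRiC, 4 of 5 genes were tested, and 1 was enriched (median 0.52). This was PDCL3, with 83.1 and 54.2 CPM in the IP libraries against 23.0 and 16.1 CPM in the Inputs, and edgeR gave 1.81 ± 0.31 on the log2 scale (SE, adjusted p = 0.0132). Genes named as its 6 pseudogenes held up to 10.1% as many counts as PDCL3, so part of its reads could have been assigned to copies.

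Other chaperonins, their relatives and HSP10 made a list of 7 genes, of which 6 were tested, with 1 enriched and 2 depleted (median -0.63). HSPD1, the mitochondrial chaperonin HSP60, had 3293 and 2569 CPM in the IP libraries against 1365 and 962 CPM in the Inputs (log2 fold change 1.33 ± 0.33, SE, edgeR adjusted p = 0.0297). It was not called with library size alone (0.73) or, in fits where 1 group held a single library, without IP replicate 1 (1.18, edgeR adjusted p = 0.0647) or without Input replicate 2 (0.95, edgeR adjusted p = 0.141). HSPE1, its lid HSP10, had 9.65 and 8.08 CPM in the IP libraries against 104 and 50.9 CPM in the Inputs, or -3.13 ± 0.38 (SE, edgeR adjusted p = 0.0105). Genes named as pseudogenes of HSPE1 numbered 26 and held up to 4.93% as many counts. The RNAs of these partner proteins stood at opposite ends, with coding sequences of 1722 and 309 bases. BBS10, a chaperonin-like protein mutated in Bardet-Biedl syndrome, was depleted at -1.67 ± 0.25 (SE, edgeR adjusted p = 0.0108).

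Among the clients, 0 of 13 tested actin and tubulin genes were called, and all lay between -0.87 (TUBA1B) and 0.73 on the log2 scale (median -0.22). With library size alone TUBA1A (-1.25), TUBA1B (-1.48), TUBB (-1.09) and TUBG1 (-1.07) were depleted (edgeR adjusted p from 0.00605 to 0.01955). TUBA1B was depleted with upper-quartile scaling too (-1.04, edgeR adjusted p = 0.019), and was at -1.19 without Input replicate 2. The actins ACTB and ACTG1 were at 0.40 and 0.23. Of 9 tested genes of WD40 and cell cycle clients 2 were depleted, the G protein beta subunits GNB1 (-1.64 ± 0.26, SE, edgeR adjusted p = 0.0121) and GNB2 (-1.02 ± 0.22, SE, edgeR adjusted p = 0.0208), and the median was 0.067. GNB2 fell short of the fold minimum with DESeq2 (-0.99) and in the fits that left out Input replicate 1 (-0.90), IP replicate 1 (-0.97) or IP replicate 2 (-0.97), and its adjusted p was 0.106 and 0.0939 in the latter pair (edgeR).

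The genes whose levels over the 4 libraries lay closest to the mean profile of the 8 subunits were ILF2, CFL1, CNOT1, HNRNPC and H2BC5, by Euclidean distance of log2 CPM among tested protein-coding genes. Their distances ran from 0.251 (ILF2) to 0.399 (H2BC5). The subunits themselves lay 0.432 (CCT7) to 2.52 (CCT3) from their own mean, so no subunit had that mean profile as closely as these genes. The log2 fold changes of these genes were between 0.60 (CFL1) and 0.90 (CNOT1), and none was called. As they were picked for closeness to this mean, their distances and fold changes describe the choice and add no result about the subunits.

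Scaling mattered to the level of all ratios. With library size alone in place of TMM, log2 fold changes of all tested genes moved by a median of -0.60, and the called genes were 380 enriched (2.59%) and 3257 depleted (22.2%) in place of 1542 and 1215. CCT3 and CCT5 were still enriched, at 1.15 and 1.03 (edgeR adjusted p = 0.0272 and 0.0236), CCT8 was at 0.74 (edgeR adjusted p = 0.0692), and the 5 other subunits changed sign. Relative to the median of all genes, 8 of 8 subunits were higher under both scalings, CCT3 by 1.77 with TMM and 1.75 with library size, and TCP1 by 0.19 and 0.17. Without IP replicate 1, 4 of the 8 were above the median of all genes, and without Input replicate 2, 5 were.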

How the data were processed

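RIP-seq of ORC1-FLAG was measured in 2 IP and 2 Input libraries, grouped by their labels. The authors deposited whole-number read counts per Ensembl gene, without normalization. According to the methods, Trimmomatic was used for trimming, STAR for alignment to hg19 and featureCounts for counting, and reads on GL contigs were removed. The annotation release, the strand setting and the handling of multiple alignments are not given in the sources used here. Names, positions, lengths and sequences are those of GENCODE v44 (GRCh38), joined by gene identifier, although the counts were made on another build. Coding lengths include the stop codon.

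IP was compared with Input by the edgeR 4.0.16 quasi-likelihood test (R 4.3.3, robust, TMM, filterByExpr, group as the only term, Benjamini-Hochberg over 14645 genes). Each SE was obtained as the log2 fold change divided by the root of F. Ratios within a replicate were taken after adding 0.5 to TMM-scaled CPM. Alternatives were other scalings and filters, DESeq2 1.42.0, limma voom (limma 3.58.1), a replicate block, leaving out each library, no fold minimum, other pseudocounts, and counts with pseudogenes added. IP and Input of a number belong to the same RIP experiment in the labels, and their deviations from group means correlated (Pearson r = 0.647 across genes). Ratios within a replicate and the replicate block used these pairs. The main fit, with its SE and adjusted p, did not. In simulated counts of these 14645 genes, 200 genes were changed by a log2 value of 2, and edgeR recovered 71.5% of them with 16 false calls. The simulated libraries were unpaired, with equally many genes raised and lowered and no shift in scaling, unlike these data. These rates therefore need not hold for the calls reported here. Replicates differed by far more than counting noise (chi-square per degree of freedom 52.4 or more).

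The subunit genes and lists were chosen with earlier results of these data known. Named genes were the subunits, list genes, neighbours, overlapping genes, pseudogenes and the 5 nearest profiles.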

Additional observations from a re-analysis of the deposited data

How the results depend on the processing

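CCT3 and CCT5 were enriched and the 5 uncalled subunits uncalled in all 12 alternative fits, and CCT8 was enriched in 9. With library size alone, 380 genes were enriched and 3257 depleted, the related lists had 1 enriched and 12 depleted genes, the median of the 8 subunits was -0.27 and their median ratios were -0.14 and -0.32 in replicates 1 and 2. In that fit TCP1 was at -0.42, CCT2 at -0.34, CCT4 at -0.36, CCT6A at -0.33, CCT7 at -0.20, ACTB at -0.21, ACTG1 at -0.37, ATP5F1A at -0.34 and CFL1 at -0.017, each with the opposite sign. The replicate block gave 1960 enriched and 1957 depleted genes, 3 of the 8 subunits were enriched, and no call of a subunit changed. With it the SE of CCT3, CCT5 and CCT8 were 0.20, 0.19 and 0.18 (edgeR adjusted p = 3.81e-06, 3.13e-06 and 1.52e-05). Among the uncalled subunits CCT7 then had the lowest edgeR adjusted p, 0.0703. Of the other genes named here, PRADC1, VWF and the transfected ORC1 gained a call with the block. ORC1 was at 1.80 in place of 1.87 (edgeR adjusted p = 3.157e-06 in place of 0.374). VWF was at 1.74 in place of 1.80 (edgeR adjusted p = 0.00386 in place of 0.0842). Leaving out each library in turn gave 1291 to 1936 enriched and 846 to 1801 depleted genes, 2 to 3 enriched subunits, a subunit median of 0.092 to 0.68, and 2 to 5 enriched and 4 to 8 depleted genes of the related lists. Without IP replicate 1 TCP1 (-0.22), CCT2 (-0.023), CCT4 (-0.14), CCT6A (-0.17) and ATP5F1A (-0.062) changed sign, and without Input replicate 2 TCP1 (-0.17), CCT2 (-0.067) and CCT6A (-0.16) did. Without IP replicate 2 TCP1, CCT2, CCT4, CCT6A and ATP5F1A were at 0.59, 0.60, 0.65, 0.71 and 0.63. ATPSCKMT changed sign when Input replicate 1 (0.072) or IP replicate 2 (0.046) was left out, and was at -0.35 without Input replicate 2. The median of genes of like coding length (0.032) was 0.79 by Input level alone, 0.75 by length within 10% and Input level, and 1.66 by both exact ranges, which left 3 genes. The cause of these changes was not tested. With 2 libraries per group, small ratios such as those of the 5 uncalled subunits could not be told from 0.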

Other observations

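Of all tested protein-coding genes, 3 shared both the coding length and the Input level of the subunits, and they are named here after their values were seen. STIP1, the co-chaperone that links HSP70 to HSP90, had a log2 ratio of IP to Input of 2.52 in replicate 1 and 2.29 in replicate 2, and edgeR gave 2.43 ± 0.38 on the log2 scale (SE from 2 libraries in each group, adjusted p = 0.0117). This was higher than that of any of the 8 TRiC subunits. EIF3D, a subunit of a translation initiation factor, was enriched at 1.66 ± 0.28 (SE, edgeR adjusted p = 0.0129), between CCT5 and CCT3. ATP5F1A, the alpha subunit of mitochondrial ATP synthase, was at 0.28 ± 0.31 (SE, edgeR adjusted p = 0.554), among the uncalled subunits. The log2 fold changes of these genes ran from 0.28 to 2.43, and those of the subunits from 0.20 to 1.78.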
